A study of Mus musculus with 3 samples.

Results

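Chromatin acetylated on lysine 27 of histone H3 (H3K27ac) was mapped in double-negative thymocytes. The regions described here were marked in both replicates and had their centre outside every annotated gene. Peaks of the 2 replicates that overlapped by at least 1 bp on chromosomes 1 to 19 and X were merged, which gave 4192 shared regions. A shared region was kept when its centre lay in no RefSeq gene of any biotype and over 1 kb from every end of a protein-coding gene. This left 436 regions, 10.4% of the shared regions, called intergenic regions below. They were chosen by the presence of a called peak in each replicate and by gene position, so neither is a result. The 3 regions nearest to the distance limit lay 1012, 1026 and 1064 bp from an end of Ctnna3, H4c8 and Mknk2. The nearest gene-free regions that fell short of it lay 1000, 959 and 948 bp from Cit, Mrpl58 and Ctdspl.

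The cells were CD4-CD8- (CD25+CD44-/+) T cell precursors sorted from the thymus of wild-type C57BL/6J mice aged 5 to 7 weeks, with no treatment and no transgene named in the labels. Fixed chromatin was captured with an antibody against histone H3, tagged with adapters, and then pulled down through H3K27ac itself. The series was set up around mice lacking enhancers of Igk or Tcrb, and both libraries used here are wild type. An input from the same cell type, taken before the second antibody, was not analysed here, and nothing states whether the replicates came from separate mice. The labels and files give no read depth, so no counting error can be attached to a peak.

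H3K27ac is laid down by the acetyltransferases p300 and CBP and marks active promoters and active enhancers. Away from genes it is used as a sign of distal enhancers, which act on promoters over distance. It also appears at promoters of RNA genes, among them those transcribed by RNA polymerase III. In developing T cells, distal enhancers control the antigen receptor loci and the genes of lineage factors.

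Among the markers of the labelled cells, peaks of both replicates lay within 1 kb of an end of 4 of 11 T lineage genes (Cd3d, Cd3e, Cd3g and Tcf7), of 0 of 3 later thymocyte genes, of 0 of 6 B cell, 0 of 4 myeloid, 0 of 3 erythroid and 0 of 4 stromal genes, and of 1 of 3 NK genes (Nkg7). Over all protein-coding genes this share was 17% (3673 of 21631). The other 7 T lineage markers, Il2ra, Bcl11b and Gata3 among them, had no such pair of peaks. Of the 4 with peaks, Cd3d, Cd3e and Cd3g lie side by side (chr9:44969572-45009663), so they are not independent of each other.

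Some intergenic regions covered or neighboured genes of regulatory RNA. Of 46 mature microRNAs in or near an intergenic region, 9 are shown, chosen after their values were seen as arms of well-known microRNAs. The arms of miR-142a and let-7i lay inside a region and the other 6 lay 2.28 to 7.26 kb from the edge of one. They are RefSeq sequences (GRCm38.p6, the mm10 build), 5′ to 3′, with the seed, bases 2 to 8, in capitals.
mmu-miR-142a-3p: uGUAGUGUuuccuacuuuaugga
mmu-miR-142a-5p: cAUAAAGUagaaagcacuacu
mmu-let-7i-5p: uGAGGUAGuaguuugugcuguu
mmu-let-7a-5p: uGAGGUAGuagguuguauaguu
mmu-miR-23a-3p: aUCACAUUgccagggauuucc
mmu-miR-27a-3p: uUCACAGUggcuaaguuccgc
mmu-miR-24-3p: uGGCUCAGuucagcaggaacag
mmu-miR-17-5p: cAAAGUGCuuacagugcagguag
mmu-miR-20a-5p: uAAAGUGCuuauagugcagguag
The let-7i and let-7a arms have 1 seed in common, as do miR-17-5p and miR-20a-5p. Mirlet7i lies on chromosome 10 and Mirlet7a-1 on chromosome 13.

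Mir142 encodes miR-142, a microRNA abundant in all blood lineages. Its region (chr11:87756182-87757166) had a fold enrichment of 2.40 in replicate 1 and 6.84 in replicate 2, with −log10 q of 1.35 and 11.3. Both values pass a q of 0.05, and the replicates overlapped by only 201 bp. The mature arms lay under the peak of replicate 1, and the peak of replicate 2 ended before them.

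Mirlet7i, a member of the let-7 family that restrains growth genes, lay inside a region (chr10:122985366-122986605) with folds of 2.04 and 3.64 and −log10 q of 0.658 and 3.83. Here the peaks of both replicates covered the gene, with 1081 bp in common, and only the replicate 2 peak had a q of at most 0.05. A region on chromosome 13 lay 7.26 kb from let-7a-5p, in the cluster that also holds let-7d and let-7f, with folds of 2.25 and 2.40.

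The Mir23a cluster makes miR-23a, miR-27a and miR-24, and 3 intergenic regions stood in a row beside it, at chr8:84196991-84198995, chr8:84200554-84201986 and chr8:84203371-84204365. Their folds in replicate 1 were 3.42, 5.00 and 5.00, and in replicate 2 they were 2.77, 1.98 and 2.77. All 3 had higher folds in replicate 1, where −log10 q was 3.0, 5.83 and 5.37, against 1.23, 0.708 and 1.04 in replicate 2. The last region ended 4.16 kb from the first mature arm, and the nearest protein-coding gene was Zswim4, at 7.07 to 12.9 kb.

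The Mir17 cluster produces miR-17, miR-18a, miR-19a, miR-20a, miR-19b and miR-92a, which are known to promote lymphocyte growth. A region 2.28 kb from miR-17-5p (chr14:115040267-115041408) had folds of 1.91 and 2.23 and −log10 q of 0.775 and 0.901. The peaks met over only 28 bp and neither had a q of at most 0.05. In all, 26 microRNA genes had an arm within 12500 bp of the edge of an intergenic region, and they belonged to 15 regions. Of these genes, 21 had no mature arm inside a region. The share of all microRNA genes, or of eligible bp, at this distance was not counted, so these counts only describe the list. Mir7671 lay in the region near Irf1 described further on, and Mir8096 lay in a region with folds of 2.23 and 1.75.

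Starts of long non-coding RNA (lncRNA) genes also lay in intergenic regions, since the centre, not the whole span, decided membership. For 20 lncRNA genes a RefSeq promoter window, from 250 bases before to 50 after the start, lay wholly inside such a region. These windows, 1 for each gene, held a median of 16.5 CpG dinucleotides (0 to 33), against 4 over all 11575 lncRNA windows and 13 over 21045 windows of protein-coding genes. The windows of 4 genes are printed, chosen after their values were seen, for genes whose neighbour or function is known or whose region was tall.
Lockd, chr6:134928842-134929141, plus strand: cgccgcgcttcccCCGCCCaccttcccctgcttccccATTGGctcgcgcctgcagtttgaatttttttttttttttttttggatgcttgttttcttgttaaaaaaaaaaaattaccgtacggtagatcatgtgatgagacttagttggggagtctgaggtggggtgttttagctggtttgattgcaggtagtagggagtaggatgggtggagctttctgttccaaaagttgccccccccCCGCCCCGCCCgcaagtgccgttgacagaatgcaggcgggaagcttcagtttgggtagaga
Snhg8, chr3:123508287-123508586, minus strand: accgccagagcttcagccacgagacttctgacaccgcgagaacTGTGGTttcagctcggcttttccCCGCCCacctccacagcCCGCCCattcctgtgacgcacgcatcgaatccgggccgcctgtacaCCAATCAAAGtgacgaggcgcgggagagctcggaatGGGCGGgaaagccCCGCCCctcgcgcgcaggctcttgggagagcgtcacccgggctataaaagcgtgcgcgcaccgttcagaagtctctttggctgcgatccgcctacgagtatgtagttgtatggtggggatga
Snhg20, chr11:117076533-117076832, plus strand: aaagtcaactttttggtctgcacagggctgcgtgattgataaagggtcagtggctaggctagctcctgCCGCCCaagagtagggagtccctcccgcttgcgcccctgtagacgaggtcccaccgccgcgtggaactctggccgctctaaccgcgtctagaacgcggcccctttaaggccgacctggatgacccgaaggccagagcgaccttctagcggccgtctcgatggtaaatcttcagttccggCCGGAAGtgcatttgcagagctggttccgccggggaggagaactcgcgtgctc
AU020206, chr7:75782071-75782370, minus strand: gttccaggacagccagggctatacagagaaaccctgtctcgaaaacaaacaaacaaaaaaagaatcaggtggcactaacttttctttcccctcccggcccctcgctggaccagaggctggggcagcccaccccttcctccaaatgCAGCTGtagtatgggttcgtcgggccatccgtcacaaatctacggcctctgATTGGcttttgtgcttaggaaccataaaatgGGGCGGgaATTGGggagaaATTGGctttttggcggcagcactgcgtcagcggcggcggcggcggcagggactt
Capitals mark matches, on either strand, to 7 short motifs: the ETS core CCGGAAG, the RUNX core TGTGGT, the TCF core CTTTGA, the GATA core AGATAA, the E-box CAGCTG, the GC box GGGCGG and the CCAAT box CCAAT. In the Snhg8 window a match to the CCAAT box and one to the TCF core overlap, and in the Lockd window 2 matches to the GC box overlap. No motif contains another.

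The GC box was found in 15 of the 20 windows (75%), against 16.3% of all lncRNA windows and 35.7% of all 32851 windows of the table. The ETS core was in 5 (25%), against 3.90% and 8.86%. The RUNX core was in 3 (15%), against 20.1% and 16.8%, and the TCF core in 3, against 18.9% of lncRNA windows. The GATA core was in 1 (5%), against 14% of lncRNA windows and 11.2% of all windows, and the E-box in 1, against 17.6% and 16.3%. The CCAAT box was in 5 (25%), against 35.9% and 37.4%. The GC box holds only G and C, and the windows inside intergenic regions had a median GC content of 58%, against 48.3% for all lncRNA windows. No windows of matched GC content were counted, so the part of base composition in these shares was not tested. With 20 windows, the shares describe the list.

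Lockd is an lncRNA gene next to Cdkn1b, which encodes the cell cycle inhibitor p27, and its start is known as a regulatory element of that gene in erythroid cells. The region over it was 3837 bp wide, with folds of 2.09 and 2.29, and −log10 q of 0.670 and 1.06. Snhg8 and Snhg20 are host genes of small RNAs, Snhg8 of Snora24, and their regions had folds of 2.05 and 2.33, and 2.81 and 2.67. AU020206, 27.6 kb from Akap13, lay under one of the taller regions, with folds of 3.40 and 6.68 and −log10 q of 2.65 and 8.72. Of these 4 regions, those at Snhg20 and AU020206 had a q of at most 0.05 in both replicates. The windows of Lockd and Snhg8 lay under the peaks of both replicates, and those of Snhg20 and AU020206 did not lie wholly under both.

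RNA genes were close to intergenic regions more often than the space they occupy. The comparison is with eligible bp, which are all bases between the first and last gene of each chromosome that lie in no gene and over 1 kb from protein-coding ends (1338 Mb in all). For ribosomal RNA genes, 12 regions (2.75%) had their centre within 1 kb of an end, against 0.00700% of eligible bp. For tRNA genes the count was 6 regions (1.38% against 0.0270%), for small nuclear RNA genes 7 (1.61% against 0.0815%) and for microRNA genes 5 (1.15% against 0.0280%). For lncRNA genes it was 28 (6.42% against 1.08%) and for pseudogenes 9 (2.06% against 1.03%). With small counts and regions that lie side by side, these shares describe the list and were not tested. In all, 65 of the 436 regions (14.9%) had their centre within 1 kb of an annotated end, and 60 overlapped a gene with part of their span.

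**Figure D1:**
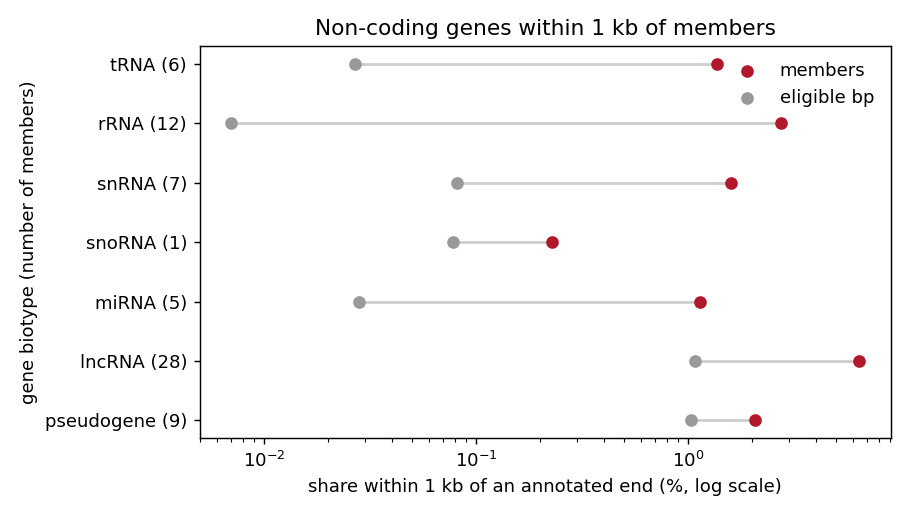
Share of the 436 intergenic regions (red) and of eligible bp (grey) within 1 kb of an annotated end of each kind of non-coding gene that at least 1 region was near, in percent on a log axis, with the number of regions in brackets. Red lies to the right of grey for each kind shown, by the widest margin for ribosomal RNA genes (2.75% against 0.00700%).

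The 5S ribosomal RNA genes, which RNA polymerase III transcribes, form a tandem array on chromosome 8. All 12 shared regions between chr8:123538258 and chr8:123622584, a span of 84.3 kb, were intergenic regions, and they overlapped 19 of the 48 ribosomal RNA genes annotated in the span. Fold enrichment ran from 1.58 to 2.86 (median 2.30) in replicate 1 and from 1.96 to 3.50 (median 2.42) in replicate 2. Widths ran from 683 to 5100 bp with a median of 2824 bp, above the median of 1142.5 bp over all intergenic regions. In none of the 12 did both replicates have a q of at most 0.05. Copies of the repeat are nearly alike, so reads cannot be assigned to 1 copy with certainty, and no source used here gives the handling of such reads.

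**Figure D2:**
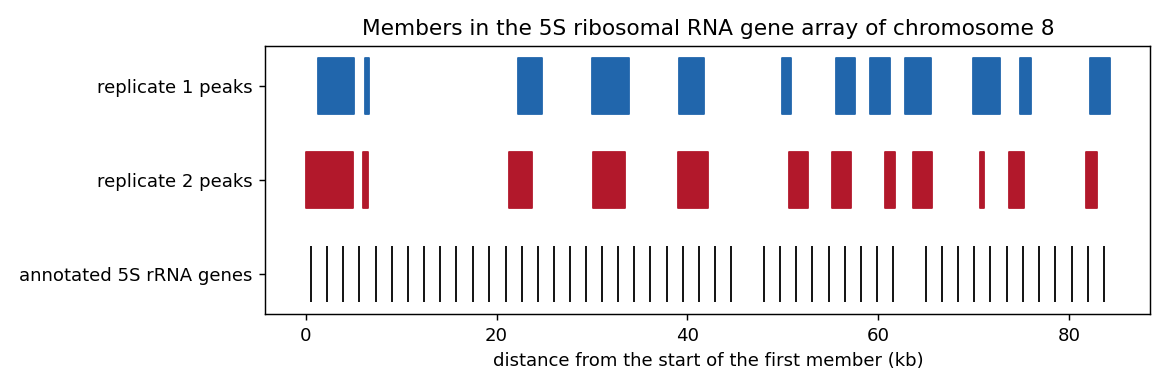
Peaks of replicate 1 (blue) and replicate 2 (red) of the 12 intergenic regions in the 5S array, and the starts of annotated 5S genes (black), by distance from the start of the first region in kb. The genes are evenly spaced along 84.3 kb and peaks of both replicates cover part of them.

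Small nuclear RNA genes under intergenic regions included Rnu2-10, which encodes a U2 RNA of the spliceosome, on chromosome 11. Its region had folds of 5.07 and 2.27, and 2 further regions of the same group covered the small nuclear RNA genes Gm23971 (3.47 and 2.88) and Gm24950 (1.86 and 2.19). Only the region over Gm23971 had a q of at most 0.05 in both replicates. Another, over Gm23444 and 3.69 kb from Slfn14, had folds of 2.05 and 5.92, so the replicates differed widely there.

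Transfer RNA genes lay under 6 regions. On chromosome 13, in the large histone gene cluster, regions covered n-TMcat8 (folds of 1.90 and 2.93), n-TVcac9 (2.39 and 2.02) and n-TMcat9 (2.35 and 3.21). The last of these was 6689 bp wide and also reached the replication-dependent histone genes H4c8, H2ac10 and H3c8. A region on chromosome 19, 16.9 kb from Osbp, covered the 3 tRNA genes n-TLtaa4, n-TRtct1 and n-TVtac1, with folds of 2.44 and 2.30. None of these 4 regions had a q of at most 0.05 in both replicates.

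Near protein-coding genes, intergenic regions were placed closer than the eligible bp. The median distance from the centre to the nearest protein-coding gene end was 24.9 kb, with quartiles of 9.27 and 77.1 kb and a highest value of 2102 kb. Within 25 kb lay 219 regions (50.2%), against 26.6% of eligible bp, and within 100 kb lay 341 (78.2% against 50.6%). Beyond 250 kb lay 47 regions (10.8% against 30.5%). Density fell from 0.658 regions per eligible Mb at 5 to 10 kb to 0.105 beyond 500 kb.

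**Figure D3:**
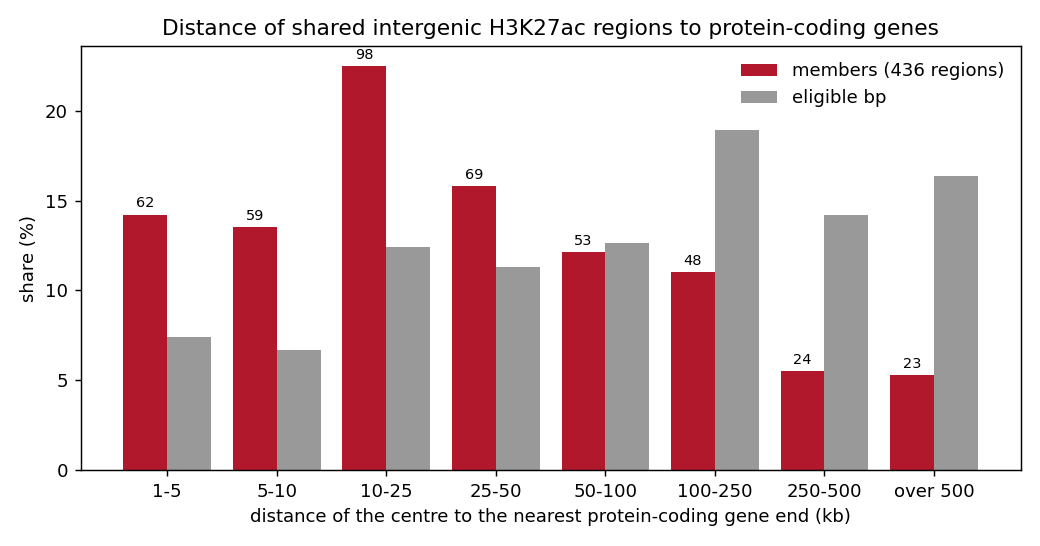
Share of the 436 intergenic regions (red, counts above the bars) and of eligible bp (grey) by distance from the nearest protein-coding gene end, in percent. Regions exceed eligible bp in each bin up to 50 kb and fall below them in each bin beyond, with 23 regions over 500 kb away.

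Strand was known for the nearest gene of 354 regions, of which 165 (46.6%) lay on the upstream side and 189 downstream. Within 5 kb the counts were 26 and 26. The rule had removed the regions within 1 kb of a gene end, so these counts say nothing of promoters themselves. The regions had 384 different nearest protein-coding genes, and 357 of these genes were nearest to a single region. Gaps between the flanking protein-coding genes had a median of 117 kb. A shared region at a gene end lay within 12500 bp of 27 regions (6.19%), and the median gap to the nearest of those was 225 kb. The same values were not taken for eligible bp or for other shared regions.

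The regions farthest from genes included 1 on chromosome 14, 2102 kb from Pcdh9, and 2 on chromosome 1 at 1412 and 1493 kb from Cntnap5b. Pcdh9 encodes a protocadherin and Cntnap5b a neurexin-like protein, both known from neurons. The others among the 5 farthest lay 1455 kb from Mrpl39 and 1306 kb from Cox7c, on chromosomes 16 and 13. The folds of the 5 ran from 1.93 to 2.31 in replicate 1 and from 1.91 to 2.66 in replicate 2, near the medians of all intergenic regions (2.21 and 2.34), and none passed a q of 0.05 in both replicates.

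Genes known for their part in T cells, and genes of other cell types and tissues, were looked up in 13 lists with 230 entries. Of all 21631 protein-coding genes, 5.34% had an intergenic region within 100 kb of an end. Among 31 T lineage transcription factors 2 had one (Runx3 and Ikzf2), among 24 genes of T cell receptor signalling 0, and among 24 genes of recombination and the double-negative stage 2 (Il2ra and Cxcr4). Among 25 immediate early and NF-kappa-B genes the count was 4 (Egr1, Irf1, Btg2 and Tnfaip3). Within 25 kb lay 0, 0, 2 and 3 genes of these lists, against 1.59% of all protein-coding genes. Over all 13 lists, those of other cell types included, a listed gene was the nearest one to a region in 12 cases among 229 genes. Of all protein-coding genes, 1.78% were the nearest one to a region. With counts this small, the shares describe the lists and nothing particular to them was tested.

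Among the other lists, 0 of 16 later thymocyte and effector genes, 0 of 24 cytokine, survival and growth genes, 0 of 10 erythroid and megakaryocyte genes and 0 of 12 unrelated tissue genes had a region within 100 kb. Progenitor genes had 1 of 16 (Gfi1b), B cell genes 2 of 12 (Igll1 and Vpreb1, which lie side by side), myeloid genes 2 of 12 (Mpo and Elane), NK and innate lymphoid genes 1 of 12 (Klrb1c) and thymic stroma genes 2 of 12 (Dll4 and Cdh5). The 2 regions within 100 kb of Mpo include that of Mir142, which lies closer to Tspoap1.

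The genes of the double-negative stage with a region nearby were Il2ra and Cxcr4. Il2ra encodes CD25, the surface marker by which these cells are staged, and a region lay 6.87 kb from its end (chr2:11634714-11637129). Its folds were 2.02 and 2.11, and −log10 q was 0.613 and 0.785. Cxcr4 encodes the receptor of CXCL12 that guides early thymocytes, and a region 23.1 kb away (chr1:128614849-128615991) had folds of 1.89 and 2.28. Neither region had a q of at most 0.05 in either replicate.

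Irf1, a transcription factor of interferon responses, had the tallest region, by the smaller of its folds, among those within 100 kb of a listed gene. Its peaks (chr11:53762847-53764024, 6.58 kb from the gene) had folds of 5.62 and 3.51 and −log10 q of 6.50 and 3.35. It was the only region whose nearest gene is a listed one, apart from that of Ets1, to have a q of at most 0.05 in both replicates. Ets1 was 391 kb from its region, on chromosome 9, whose low folds are described further on. Near Tnfaip3, an inhibitor of NF-kappa-B, a region 47.3 kb away covered the start of the lncRNA gene Gm51814, with folds of 2.0 and 2.72. Egr1, an early response factor, had a region at 5.27 kb with folds of 1.93 and 2.43.

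Ikzf2, which encodes Helios, was 74.4 kb from a region with folds of 2.11 and 1.96, and Runx3, a factor of the CD8 lineage, 25.6 kb from one with folds of 2.28 and 1.79 that lay closer to Clic4. Gfi1b, a repressor of blood cell genes, had a region at 6.32 kb with folds of 1.96 and 5.00, so that it stood out in replicate 2 alone. Igll1 and Vpreb1 encode the surrogate light chain of B cell precursors, and 2 regions lay beside Igll1, at 2.13 and 4.14 kb. Their folds were 1.99 and 2.03, and 1.80 and 3.01. Of the 16 shared regions centred in antigen receptor loci, 0 were intergenic regions, because RefSeq lists Tcrb, Tcrg, Igk, Igh and Tcra as genes over their whole length.

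Most intergenic regions stood alone. Joined across gaps of up to 12500 bp, 386 formed no group, and the other 50 (11.5%) formed 16 groups, of which 10 were pairs. Groups of 3 or more numbered 6 and held 30 regions. They comprised 10 regions of the 5S array, 6 on chromosome 6 between Gm40363 and Pdia4, 4 near Gm21119 on chromosome 8, 4 beside Mid1 on X, and the trios beside Mir23a and over the small nuclear RNA genes of chromosome 11.

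The group of 6 on chromosome 6 ran over 26.3 kb (chr6:47746918-47773168), and peaks of both replicates covered 38.4% of it. Folds were 2.06 to 2.85 in replicate 1 and 2.28 to 3.48 in replicate 2. The span held the lncRNA genes Gm52861 and Gm52862, and the last region lay 9.07 kb from Rny3, which encodes a small Y RNA. Pdia4, which encodes a disulfide isomerase of the endoplasmic reticulum, was 23.6 kb from it. Of the 6 regions, 1 had a q of at most 0.05 in both replicates.

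A dense stretch on chromosome 8 held 17 regions between chr8:19763041 and chr8:20854317, next to predicted genes such as Gm21119 and the defensin gene Defb33. Their widths reached 7977 bp, the second widest of all intergenic regions. Folds ran from 1.99 to 2.84 in replicate 1 and from 1.61 to 4.73 in replicate 2, and 1 of the 17 had a q of at most 0.05 in both. No source used here says how reads from repeated sequence were placed, and the part of other copies in the signal of this stretch, or of the end of X described next, was not tested. At the end of X, 11 of the 24 regions of that chromosome lay between chrX:169989443 and chrX:170881437, nearest to Mid1, which spans the boundary of the pseudoautosomal region, or to Asmt, which encodes the last enzyme of melatonin synthesis. Their folds of 1.96 to 2.61 and 1.90 to 2.80 covered similar ranges in both replicates. Their −log10 q ran from 0.608 to 1.33 in replicate 1 and from 0.766 to 1.77 in replicate 2, and 0 of the 24 regions of X had a q of at most 0.05 in both.

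Chromosome 8 had 0.765 regions per eligible Mb, against 0.326 over all. Without the regions of the 5S array and the dense stretch it had 22, or 0.330 per eligible Mb of the whole chromosome. Chromosomes 11 (0.517), 19 (0.486) and 6 (0.475) came next, and chromosome 9 was lowest, at 0.200. On X, intergenic regions made up 27.3% of the shared regions, and on chromosome 9 they made up 5.85%.

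**Figure D4:**
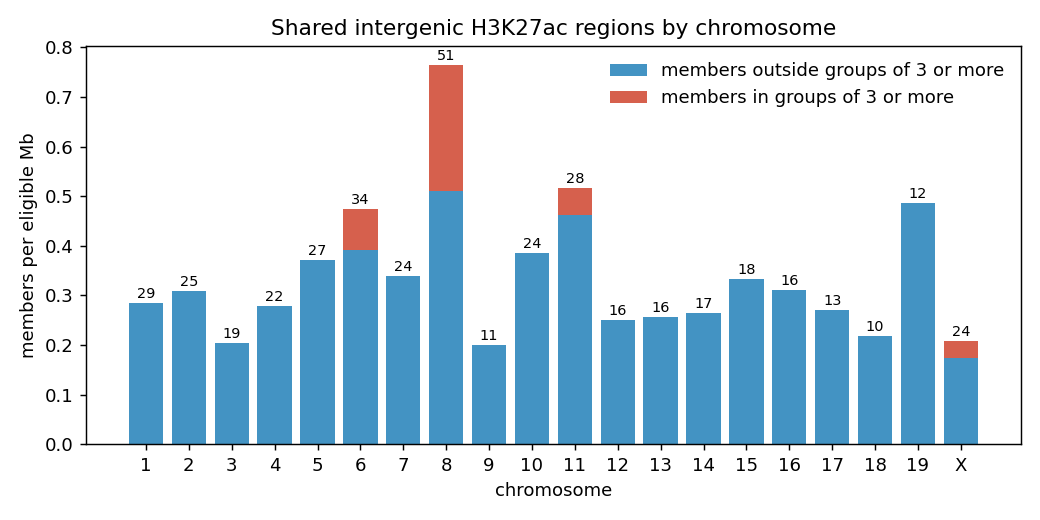
Intergenic regions per eligible Mb on each chromosome, with the number of regions above each bar; red parts are regions in groups of 3 or more, blue parts all others. Chromosome 8 has the highest bar (0.765 per Mb, 51 regions), of which 17 regions are in groups of 3 or more.

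The intergenic regions had median widths and folds near those of other shared regions, and a larger share of wide regions than at gene ends. Their median merged width was 1142.5 bp (quartiles 682 and 1791), against 1127 bp at gene ends and 1335 bp in bodies of protein-coding genes. Wide regions of at least 3 kb made up 8.03% (35 regions), against 4.17% of all shared regions, 1.85% at gene ends and 9.45% in gene bodies. Median folds were 2.21 in replicate 1 and 2.34 in replicate 2, against 2.17 and 2.34 at gene ends. The bp covered by both replicates had a median of 447, against 518.5 at gene ends.

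A q of at most 0.05 in both replicates was reached by 61 intergenic regions (14%), against 15.5% of all shared regions. These 61 are among the 112 regions that reached it in replicate 1 and the 173 that did so in replicate 2, and 212 reached it in neither. Chromosomes 6 and 9 held 22 of the 61, and on the other chromosomes 39 of 391 (9.97%) passed. By distance from genes, the share was 16.1% at 1 to 5 kb, 15.3% at 5 to 25 kb, 8.20% at 25 to 100 kb and 17.9% beyond 100 kb. Median width fell over the same bins from 1413.5 to 1207, 1138 and 873 bp, while the median folds of replicate 1 stayed between 2.07 and 2.30.

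Peaks outside genes met less often between replicates than peaks at gene ends. Of 3471 such peaks in replicate 1, 437 (12.6%) overlapped a peak of replicate 2, and of 2615 in replicate 2, 446 (17.1%) overlapped one of replicate 1. At gene ends the shares were 63.6% and 71.8%, and in protein-coding gene bodies 23.1% and 35.3%. Outside genes lay 28.4% of the peaks of replicate 1 and 27.7% of those of replicate 2. Their median widths were 492 and 474 bp, against 726.5 and 664.5 bp at gene ends. The relation of width to meeting was not tested.

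The folds of the 436 regions were weakly related between replicates. Each region was kept for a called peak in both replicates, which cuts off low folds. The correlations below therefore do not measure how well the replicates agree. Gene-end regions were chosen by peaks in the same way. Across the 436 regions, which are not independent replicates and share both libraries, the rank correlation (Spearman's rho) came to 0.163 and the linear one (Pearson's r) to 0.157. At gene-end regions rho was 0.213, over 2758 regions. Without chromosomes 6, 9, 14 and 17 rho was 0.145 over 361 intergenic regions, and within chromosome 6 it was −0.0732 over 34. Bp under peaks in each replicate were more closely related than folds, with a rho of 0.322. This was below the 0.428 at gene-end regions and the 0.420 over all shared regions.

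**Figure D5:**
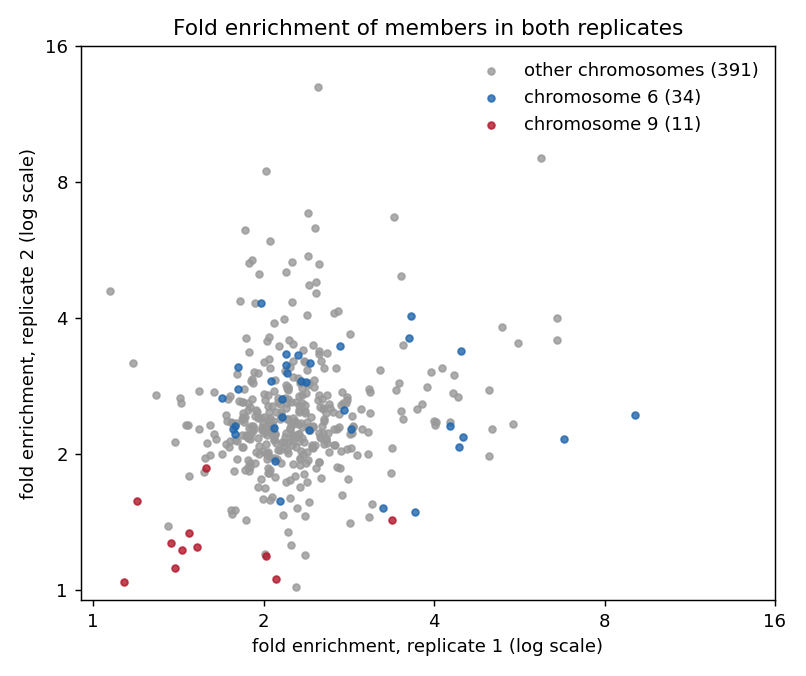
Fold enrichment of the tallest peak of each intergenic region in replicate 1 and replicate 2, both on log axes, for chromosome 6 (blue, 34), chromosome 9 (red, 11) and the other chromosomes (grey, 391). Most points lie near 2 in both replicates, and those of chromosome 9 have median folds of 1.48 and 1.24.

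Some regions were tall in both replicates, and the same count was not made for the other shared regions. A fold of at least 3 in each was reached by 14 regions, led by one 26.8 kb from Trim33 (chr3:103383878-103387342), with folds of 6.17 and 9.04 and −log10 q of 8.44 and 14.7. Trim33 encodes a cofactor of SMAD signalling with a role in blood cell formation. Next came a region 1103 kb from Lrfn5 (6.60 and 3.99) and one 15.1 kb from Dnah17 (5.28 and 3.82). On chromosome 6, regions near Gfpt1 (3.64 and 4.04), D6Ertd527e (3.62 and 3.62) and Il23r (4.46 and 3.38) also passed a fold of 3 in both. Il23r encodes a receptor subunit for interleukin 23, and Gfpt1 the first enzyme of hexosamine synthesis.

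Other peaks were tall in 1 replicate, of which 2 are given, chosen after their values were seen. A region 10.2 kb from Musk had folds of 2.5 and 13.0, and one 42.7 kb from Zswim2 had 2.02 and 8.45. The 2 regions were picked for the size of this difference, so it says nothing of the spread over the list. No replicate error beyond these pairs can be given.

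Several of the smallest q-values came with low folds. With a fold under 2 and a −log10 p of at least 5 in both replicates there were 9 regions (2.06%), against 4.06% of all shared regions, and 8 of them lay on chromosome 9. They included regions near Elovl5 (folds of 1.58 and 1.86, −log10 q of 13.0 and 28.0), Cadm1 (1.53 and 1.24) and Dpy19l2 (1.48 and 1.34). Of the 11 intergenic regions of chromosome 9, 9 had a q of at most 0.05 in both replicates. The remaining low-fold region lay on chromosome 2, 70.5 kb from Cdh26 (1.86 and 1.43, −log10 q of 15.0 and 4.02). On the same chromosome, a region 11.9 kb from Gm14496 had folds of 2.01 and 1.20 and −log10 q of 16.4 and 7.31. Regions near Zfp217 and Gm14410, also there, had −log10 q of 15.2 to 32.3 in replicate 1 alone, with folds of 1.86 to 2.26. Small q-values also came with moderate folds at a region 137 kb from Rab10 on chromosome 12 (2.44 and 2.08, −log10 q of 21.1 and 14.5).

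The widest region, chr9:3000073-3038323, was of this kind. It was 38251 bp wide, against 7977 bp for the next, with folds of 1.43 and 1.23, and it lies next to the gap that opens the assembled sequence of chromosome 9. Peaks of both replicates covered 38153 bp of it, of 305 kb covered by both in all 436 intergenic regions. Other wide regions stood near Mid1 (7174 bp), H4c8 (6689 bp), Gm21119 (6599 bp), 9530057J20Rik (5947 bp) and Lrrc4c (5584 bp, at a distance of 1033 kb), and over the 5S genes (5100 bp). The part of repeated sequence in the signal of the widest regions, those on chromosome 9 and near Lrrc4c included, was not tested.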

How the data were processed

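H3K27ac was measured in 2 replicates of sorted wild-type double-negative thymocytes; the input sample was not analysed here. The submitters' processing notes name Bowtie2, mm10 and MACS 1.4.2; the deposited layout is that of MACS2. Peak names in the deposited files show 1 library per list and removed duplicates. No source used here gives the peak cutoff or control. The fold ratio, −log10 p and −log10 q are the authors' own values, as is the deposited score, which was not used. They served to describe peaks; a region takes those of its tallest peak in each replicate. Depth is unknown.

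Coordinates are 1-based mm10, and genes, miRNAs and promoter windows are RefSeq (GRCm38.p6); 17274 of 21631 protein-coding genes had a strand. Distances run from a region's centre to the nearer gene end. Named genes are nearest to the 10 widest, the 10 tallest, the 10 with the smallest q and the 5 farthest regions, to regions in groups of 3 or more, or are listed genes; genes named outside this rule were chosen after their values were seen. Members and lists were chosen with earlier results of these data known. With 1 group of 2 replicates and members chosen from the peaks, no test was made. Merging and placing were tested on simulated data. Alternatives are given in the closing section. Python 3.11.15, numpy 2.4.6, pandas 2.3.3, scipy 1.17.1 and matplotlib 3.10.9 were used.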

Additional observations from a re-analysis of the deposited data

Results flagged for a closer look

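Peaks outside the chromosomes described above also met between replicates, a signal in data that entered no comparison. Chromosome Y carried 149 peaks in replicate 1 and 48 in replicate 2, and 8 of the former met one of the latter. Unplaced sequences carried 75 and 55, and there 12 of the 75 met a partner. These counts have no control value beside them, as the input sample was not used here.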

How the results depend on the processing

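No paired analysis was possible because there is 1 group of replicates and no test. Over all settings, 34 values stayed within 1.5 times the main count, or for medians and shares within 1 SD of the replicates taken alone, and 36 did not. The number of regions fell from 436 to 61 with q of at most 0.05, and lay between 2615 and 3471 with each replicate alone, where the share lay between 27.7% and 28.4%. The share of 10.4% was 9.58% with overlap over at least 50% of the shorter peak, 9.40% with q of at most 0.05, 9.69% beyond 2.5 kb, 8.85% beyond 1 kb from genes of any biotype, 8.97% with no bp in a gene and 9.75% without groups of 3 or more, a setting chosen after seeing the data. The median distance of 24.9 kb was 15.0 kb with q of at most 0.05, 31.3 kb beyond 2.5 kb, 28.4 kb with no bp in a gene, and 45.2 to 48.5 kb with each replicate alone. The median width of 1142.5 bp was 1120 bp with that overlap and with genes of any biotype, 1074 bp with q of at most 0.05, 1181.5 bp with only the top peaks by p of each replicate, 1098.5 bp with no bp in a gene, 1167 bp without chromosomes 6, 9, 14 and 17, 1099.5 bp without groups of 3 or more, and 474 to 492 bp for single peaks of each replicate alone. The 16 groups became 10 with that overlap, 0 with q of at most 0.05, 10 without groups of 3 or more by construction, 9 when joined within 5 kb, and 178 to 215 with each replicate alone. The 1155 genes with a region within 100 kb became 182 with q of at most 0.05, 345 within 25 kb, 2544 within 250 kb, and 4309 to 5541 with each replicate alone. Single replicates and the q threshold changed the peaks that entered, and the joining distance and gene windows changed only a distance, by construction; for the others the cause was not tested. The files hold no depth, so what sequencing limits cannot be stated.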
